A study of Homo sapiens with 16 samples.

Results

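Gene expression in 451Lu BR melanoma cells 72 h after dabrafenib was withdrawn was compared with that in the same cells 24 h after withdrawal. The comparison used 4 of the 16 RNA sequencing libraries of the study, 2 at 72 h and 2 at 24 h, taken by the cell line and time in their labels. All 8 libraries of the line entered 1 fit, so that the libraries at 120 h and on drug also informed the spread between replicates. 451Lu is a human melanoma line with an activating BRAF mutation, and 451Lu BR is its drug-resistant derivative. In both groups dabrafenib, an inhibitor of BRAF, had been replaced with DMSO, and the cells grew in DMEM with fetal bovine serum. The treatment notes give dabrafenib alone (1 µM) as the drug withdrawn, while the source name calls the cells resistant to both dabrafenib and trametinib, an inhibitor of MEK. The study also sampled a second resistant line, DR A375, after withdrawal of dabrafenib (0.5 µM) and trametinib (0.05 µM), of which the libraries at 48 h and 24 h are used here. No label tells whether replicate libraries were separate cultures, and p-values therefore cover only the spread between the libraries, which may be technical. Cells on drug were not sampled at each time, so time in culture and time off drug cannot be told apart.

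BRAF phosphorylates and activates MEK, and MEK activates the ERK kinases, which drive growth in melanomas with mutant BRAF. Cells that have become resistant to BRAF inhibitors often restore ERK activity in the presence of the drug, and can then depend on the drug, because its removal releases more ERK activity than the cells tolerate. ERK output is read from its feedback genes, such as the DUSP phosphatases and the Sprouty proteins, from cyclin D1 and from the AP-1 transcription factors. The comparison asks how expression went on changing between the first and the third day after withdrawal.

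The 72 h libraries held 9714190 and 10691515 counts, and the 24 h libraries 14002955 and 11659143. Of 13851 genes tested, 7126 changed between 24 h and 72 h (51.4%; edgeR quasi-likelihood test, Benjamini-Hochberg adjusted p under 0.05). The calls split into 3589 genes higher at 72 h (25.9%) and 3537 lower (25.5%), and the median log2 fold change over all genes was -0.002. At least 2-fold changes were called for 1125 genes higher (8.12%) and 595 genes lower (4.3%). A separate test against a 1.5-fold change, also used below, passed 1069 genes higher and 699 lower of the same 13851. Each count of list genes below is to be read beside the all-gene figure for its own test. The 2 libraries at 72 h lay outside the 2 at 24 h for 75.2% of genes, above them for 37.9% and below them for 37.3%. The 6 defining markers of the melanocyte lineage (MITF, SOX10, PMEL, MLANA, TYR and DCT) were detected in all 4 libraries and together summed to 838 and 994 CPM at 72 h, against 2310 and 2390 CPM at 24 h. PMEL made up most of the sum at 24 h (1910 and 1960 CPM), so the sum mainly follows PMEL. PMEL, MLANA and DCT were lower at 72 h, MITF and SOX10 were higher, and TYR overlapped. CPM, counts divided by scaled library sizes, are levels relative to all other genes, and in bulk RNA fewer cells of a type and less RNA per cell cannot be told apart.

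**Figure D1:**
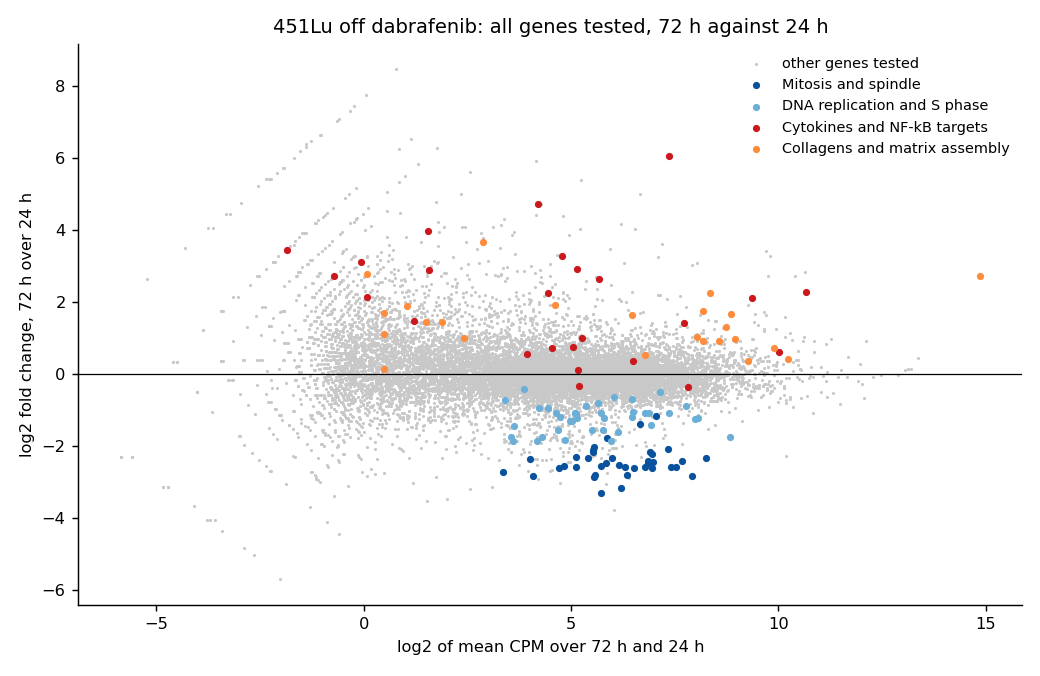
Each point is 1 gene, with the log2 of its mean CPM over the 4 libraries at 72 h and 24 h on the horizontal axis and its log2 fold change (72 h over 24 h) on the vertical axis. 4 gene lists are coloured, and 5 genes with 0 counts in all 4 libraries are left out. All genes of the mitosis and DNA replication lists lie below 0, most cytokine and matrix genes lie above it, and FN1 is the point farthest to the right.

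Of 28 gene lists, those of cell division had the lowest medians at 72 h. All 38 genes of the mitosis and spindle list fell, with a median log2 fold change of -2.50 and a range of -3.31 to -1.17. Together they gave 991 and 1260 CPM at 72 h, against 5580 and 6080 CPM at 24 h. KIF20A (ENSG00000112984, chromosome 5, 138178719 to 138187715, positions as in the authors' table on GRCh38 throughout), a kinesin needed for cytokinesis, had 7.84 and 11.4 CPM at 72 h, against 89.5 and 104 CPM at 24 h. The log2 fold change was -3.31 ± 0.13 (SE), a 9.94-fold lower level with adjusted p = 1.23e-11 by edgeR. PLK1 (chromosome 16, 23677656 to 23690367), the kinase that drives entry into and passage through mitosis, had 13 and 16.3 CPM at 72 h and 132 and 133 CPM at 24 h, 8.96-fold lower. For both genes each library at 72 h was far below each at 24 h. MKI67, the gene of the proliferation marker Ki-67, was 7.12-fold lower, with 55.3 and 63.4 CPM at 72 h against 396 and 451 CPM at 24 h. BIRC5, which encodes the mitotic and anti-apoptotic protein survivin, was 6.10-fold lower, with 24.9 and 26.4 CPM at 72 h against 154 and 159 CPM at 24 h. Further mitotic genes stood among the 12 deepest falls of all: the kinase NEK2 (8.11-fold lower), the spindle protein FAM83D (8.36-fold), the kinesin KIF18B (7.56-fold) and GTSE1, a microtubule-associated protein (7.38-fold). The test of at least a 1.5-fold change kept all 38 genes. Within the 72 h group the mitotic genes were lower in replicate 1 than in replicate 2, by a median of 0.34 on the log2 scale, and at 24 h by 0.13.

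Mitotic genes are known to share 2 short promoter elements, the CHR (TTTGAA) and the CCAAT box (CCAAT), which are bound by the DREAM and NF-Y complexes. Promoters are shown for 3 mitotic genes and for RRM2, a gene of S phase, since their elements differ. They are windows from RefSeq (GRCh38.p14), 250 bases before to 50 after the start of transcription, 5′ to 3′ on the strand of the gene. Capitals mark each match to either element on either strand. In MKI67 the second CHR and the CCAAT box on the opposite strand overlap.
PLK1 (chr16:23678639-23678938, + strand): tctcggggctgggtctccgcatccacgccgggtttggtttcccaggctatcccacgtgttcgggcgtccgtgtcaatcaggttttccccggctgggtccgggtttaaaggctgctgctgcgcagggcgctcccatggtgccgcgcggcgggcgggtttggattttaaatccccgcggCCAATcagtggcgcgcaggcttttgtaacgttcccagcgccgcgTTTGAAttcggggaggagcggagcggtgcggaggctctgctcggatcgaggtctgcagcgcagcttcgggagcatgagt
MKI67 (chr10:128126374-128126673, - strand): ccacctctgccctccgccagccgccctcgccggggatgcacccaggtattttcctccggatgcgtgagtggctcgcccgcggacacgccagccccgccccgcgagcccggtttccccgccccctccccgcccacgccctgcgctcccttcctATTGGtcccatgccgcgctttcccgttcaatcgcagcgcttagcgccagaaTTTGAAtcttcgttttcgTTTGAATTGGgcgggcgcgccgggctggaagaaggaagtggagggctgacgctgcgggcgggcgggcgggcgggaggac
KIF20A (chr5:138178862-138179161, + strand): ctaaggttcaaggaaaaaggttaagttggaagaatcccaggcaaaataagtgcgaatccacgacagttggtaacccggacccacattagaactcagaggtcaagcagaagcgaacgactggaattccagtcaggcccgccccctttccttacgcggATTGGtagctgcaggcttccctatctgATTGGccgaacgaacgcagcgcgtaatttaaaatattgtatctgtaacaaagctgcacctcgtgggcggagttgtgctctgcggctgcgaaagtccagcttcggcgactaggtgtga
RRM2 (chr2:10122489-10122788, + strand): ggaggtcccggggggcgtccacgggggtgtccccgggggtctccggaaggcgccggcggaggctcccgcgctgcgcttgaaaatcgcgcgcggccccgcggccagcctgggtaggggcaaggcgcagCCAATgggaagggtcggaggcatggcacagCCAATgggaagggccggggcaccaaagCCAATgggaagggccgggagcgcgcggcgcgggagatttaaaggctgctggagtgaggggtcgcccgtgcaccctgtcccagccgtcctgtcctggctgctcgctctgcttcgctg
The window of PLK1 held 1 CHR and 1 CCAAT box, and that of MKI67 held 2 of each. KIF20A had 2 CCAAT boxes and RRM2 had 3, and neither window held TTTGAA. Of the 38 mitotic genes 32 had a promoter in the table, and 23 of these (71.9%) held a CHR, against 15.4% of all 27305 promoters. A CCAAT box was present in 25 (78.1%), against 35.7% of all promoters, and both elements in 19 (59.4%), against 6.08%. Among 35 promoters of the DNA replication list, 2.86% held a CHR and 51.4% a CCAAT box. The CCAAT box was not particular to genes of division. It stood in 64.0% of 25 promoters of cholesterol and fatty acid synthesis, a list that mostly rose, and in 22.2% of 27 nuclear-encoded respiratory chain promoters. These shares describe letters in the windows and say nothing of binding in these cells.

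The DNA replication and S phase list fell as a whole but less deeply. All 40 genes fell, with a median log2 fold change of -1.20 and a range of -1.86 to -0.41, and 35 passed the test of at least a 1.5-fold change. RRM2, the inducible subunit of ribonucleotide reductase, which supplies the precursors of DNA, had 207 and 215 CPM at 72 h and 700 and 721 CPM at 24 h, a log2 fold change of -1.75 ± 0.07 with edgeR adjusted p = 8.69e-12. MCM4, a subunit of the replicative helicase, was 2.38-fold lower, with 146 and 153 CPM at 72 h against 355 and 359 CPM at 24 h. Neither gene had overlapping groups. LMNB1, the gene of the nuclear envelope protein lamin B1, fell 3.52-fold, and NEIL3, a DNA repair glycosylase, fell 8.74-fold. MYB, a transcription factor of proliferating progenitors, fell 7.24-fold, to 1.07 and 0.569 CPM at 72 h, against 5.30 and 6.57 CPM at 24 h.

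Ribosome biogenesis genes also fell, by less. Of 30 tested, 28 fell and none rose, with a median log2 fold change of -0.66, and 12 passed the test of at least a 1.5-fold change. NOP56, a core protein of the particles that modify ribosomal RNA, had 339 and 338 CPM at 72 h, against 676 and 636 CPM at 24 h (1.94-fold lower). NPM1, the nucleolar protein nucleophosmin, had 743 and 760 CPM at 72 h and 1250 and 1300 CPM at 24 h. The translation factor gene EEF1A1 fell 1.58-fold, to 3300 and 3340 CPM at 72 h against 5360 and 5140 CPM at 24 h. Its reads may in part come from near-identical pseudogenes. Chaperone genes fell as well: 18 of 20 in the heat shock list were lower and 1 was higher, with a median of -0.60, and 7 falls passed the test of at least a 1.5-fold change. HSP90AA1, the inducible cytosolic HSP90, had 1160 and 1210 CPM at 72 h and 2420 and 2560 CPM at 24 h, 2.1-fold lower. HSPB8, a small heat shock protein, was the chaperone that rose, with 57.8 and 53.8 CPM at 72 h against 19.3 and 16.8 CPM at 24 h. MYC, the transcription factor that drives ribosome production, was lower with a log2 fold change of -0.23 ± 0.07 and adjusted p = 0.0089, and did not pass without replicate 1 of either time or in the test of at least a 1.5-fold change.

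**Figure D2:**
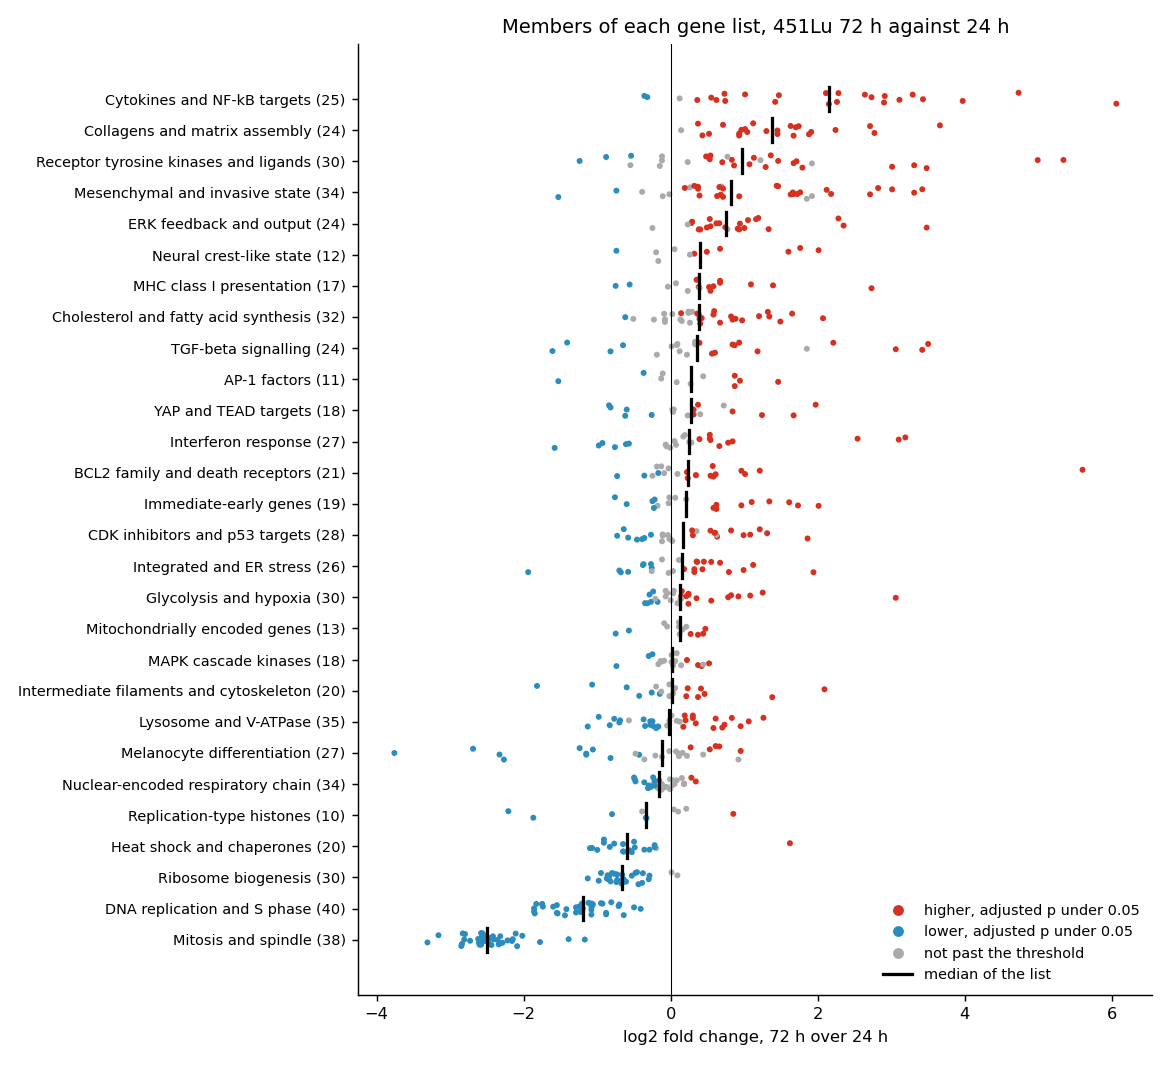
Log2 fold change at 72 h over 24 h of every tested gene in 28 lists, 1 line per list, with the number tested in brackets. Red points were higher and blue points lower at adjusted p under 0.05, grey points did not pass, and black bars are list medians; 2 genes with 0 counts at 24 h are not drawn. The medians run from -2.50 for mitosis to 2.15 for cytokines.

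Most genes of the ERK feedback and output list rose between 24 h and 72 h. The list does not hold the AP-1 factor FOSL1, which fell. Of the 24 genes of ERK feedback and output, 21 rose and none fell, with a median log2 fold change of 0.75, and 12 passed the test of at least a 1.5-fold change. DUSP6 (ENSG00000139318, chromosome 12, 89347232 to 89353271), the phosphatase that switches ERK off, had 1160 and 1090 CPM at 72 h, against 538 and 444 CPM at 24 h. The log2 fold change was 1.19 ± 0.08, with edgeR adjusted p = 4.17e-09. SPRY4, a Sprouty protein that damps signalling from receptors, had 208 and 205 CPM at 72 h and 95.2 and 89.7 CPM at 24 h, 2.23-fold higher. CCND1, which encodes cyclin D1, rose 1.90-fold, to 5890 and 5740 CPM at 72 h against 3200 and 2920 CPM at 24 h. In none of these 3 genes did the groups overlap. KCNN4, a calcium-activated potassium channel, rose 11.2-fold, with 114 and 111 CPM at 72 h against 11.8 and 8.06 CPM at 24 h. The 3 genes of the list that did not pass, named after their values were seen, were ETV4 (log2 fold change -0.25), SPHK1 (0.23) and EPHA2 (0.77). EGR1, an immediate-early transcription factor, rose 2.14-fold with 379 and 334 CPM at 72 h and 175 and 157 CPM at 24 h. NR4A2, a nuclear receptor of the same class, rose 4.03-fold, while the repressor KLF10 fell 1.70-fold. In all, 9 of 19 immediate-early genes rose and 5 fell (25.9% and 25.5% of all genes). Their median log2 fold change was 0.21 and depended on the fit, from 0.10 to 0.61 over the alternatives. Of the immediate-early genes, 6 rises and 1 fall passed the test of at least a 1.5-fold change.

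The AP-1 transcription factors, dimers of FOS and JUN proteins, divided. FOSL1 (ENSG00000175592, chromosome 11, 65892049 to 65900573), which encodes FRA1, fell, with 76.1 and 80.7 CPM at 72 h against 241 and 210 CPM at 24 h. This log2 fold change was -1.53 ± 0.08, with adjusted p = 1.94e-10 by edgeR and no overlap between the groups. JUNB rose 1.83-fold, with 174 and 161 CPM at 72 h and 99.1 and 83.5 CPM at 24 h, and FOSB rose 2.75-fold. JUN had 15 and 14 CPM at 72 h and 16.7 and 14.5 CPM at 24 h, which overlap and did not pass the test (log2 fold change -0.11 ± 0.15, adjusted p = 0.549). Of 11 AP-1 genes 4 rose and 2 fell (25.9% and 25.5% of all genes). MAFK, a small partner of AP-1 proteins and the other gene that fell, did not pass without replicate 1 of either time or in DESeq2.

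Genes listed for the kinase cascade changed little. Their list also holds HRAS, which is not a kinase gene, and the stress kinase gene MAPK9. Of 18 genes tested 4 rose and 3 fell (25.9% and 25.5% of all genes), with a median log2 fold change of 0.02. Without a filter on low counts 5 fell. No change passed the test of at least 1.5-fold. MAPK3, which encodes ERK1, was 1.34-fold higher, with 52.1 and 58.9 CPM at 72 h against 40.9 and 42.2 CPM at 24 h. BRAF was 1.44-fold higher, with 129 and 122 CPM at 72 h and 86.8 and 87.6 CPM at 24 h. HRAS fell 1.68-fold. MAPK9, the gene of the stress kinase JNK2, fell 1.23-fold and did not pass without replicate 1 at 72 h or replicate 2 at 24 h, or in DESeq2.

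Several inhibitors of the cell cycle rose beside the fall of the division genes. CDKN1A (ENSG00000124762, chromosome 6, 36676460 to 36687339), which encodes the CDK inhibitor p21, had 334 and 304 CPM at 72 h, against 139 and 117 CPM at 24 h. Its log2 fold change was 1.31 ± 0.09, with adjusted p = 5.66e-09. CDKN2B, which encodes p15, rose 2.12-fold, to 104 and 100 CPM at 72 h against 52.6 and 43.5 CPM at 24 h, while CDKN1B, which encodes p27, fell 1.31-fold. The p53 target AEN, an exonuclease, fell 1.65-fold and BAX, a p53 target that promotes apoptosis, fell 1.28-fold. The 28 genes of CDK inhibitors and p53 targets gave 12 rises and 7 falls (25.9% and 25.5% of all genes) with a median of 0.16. The 7 falls became 3 without replicate 1 at 72 h, and 4 rises and no falls passed the test of at least a 1.5-fold change.

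Among 21 genes of the BCL2 family and death receptors, 11 rose and 3 fell, with a median log2 fold change of 0.23, and 3 rises and no falls passed the test of at least a 1.5-fold change. MCL1, a survival protein, had 873 and 907 CPM at 72 h and 449 and 464 CPM at 24 h, 1.95-fold higher. BCL2 itself fell 1.66-fold, with 6.45 and 7.58 CPM at 72 h against 10.1 and 13.5 CPM at 24 h. TNFSF10, which encodes the death ligand TRAIL, had 14.1 and 9.19 CPM at 72 h, against 0.349 and 0.0831 CPM at 24 h, a 48.7-fold higher level with adjusted p = 2.56e-08. With so few counts at 24 h, the fold was 124 without replicate 1 and 32.1 without replicate 2 of that time.

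Matrix and invasion genes rose strongly, and FN1 took the largest share of RNA. FN1 (ENSG00000115414, chromosome 2, 215360440 to 215436172), which encodes the matrix protein fibronectin, had 56500 and 46300 CPM at 72 h, against 8760 and 6980 CPM at 24 h. The log2 fold change was 2.71 ± 0.10, with edgeR adjusted p = 7.57e-12, and the groups stood far apart. It made up 5.41% and 4.57% of all counts at 72 h and 0.897% and 0.72% at 24 h. Of the 24 tested genes of collagens and matrix assembly, 23 rose and none fell, with a median of 1.38. The list has 35 genes, and 11 did not pass the filter on low counts; a low gene can pass it through its high group alone. COL6A2, a chain of collagen VI, had 546 and 540 CPM at 72 h and 122 and 108 CPM at 24 h, 4.72-fold higher. COL10A1, a collagen of growing cartilage, had 85 and 45 counts at 72 h and 1 in each library at 24 h, a ratio of 86.3 with a 95% counting interval of 23.4 to 720. Its fitted log2 fold change was 6.27, and 5.65 without replicate 1 at 72 h.

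MMP1, an interstitial collagenase, had 3460 and 2190 CPM at 72 h and 462 and 338 CPM at 24 h, 7.07-fold higher. NT5E, the enzyme CD73 that makes adenosine, rose 3.30-fold. ITGA11, a collagen-binding integrin, had 40.8 and 29.9 CPM at 72 h and 0.697 and 0.416 CPM at 24 h, 60.8-fold higher. The actin-bundling gene FSCN1 rose 20.9-fold, to 53.9 and 52.8 CPM at 72 h against 2.79 and 2.24 CPM at 24 h. Of 34 tested genes of the mesenchymal and invasive list 25 rose and 2 fell, with a median of 0.82, and 15 rises passed the test of at least a 1.5-fold change. The 2 that fell were transcription factors, FOSL1 and, 1.68-fold lower, SNAI2, a repressor of epithelial genes.
Markers of fibroblasts moved as well: 4 of the 5 tested rose and LUM fell. The 9 fibroblast markers of the table summed to 58.1 and 52.0 CPM at 72 h and 34.2 and 35.3 CPM at 24 h. PDGFRB led at 29.4 CPM at 72 h, COL1A1 averaged 5.44 CPM, and THY1 and PDPN had 0 counts at both times. The 6 endothelial markers summed to 28.4 and 22.6 CPM at 72 h and 2.02 and 2.83 CPM at 24 h, with PECAM1, an adhesion molecule, giving 22.5 CPM on average at 72 h, VWF 0.761 CPM and TEK 0.

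Receptor tyrosine kinases and their ligands rose more often than they fell. Of 30 tested genes 19 rose and 3 fell, with a median of 0.97, and 13 rises and 1 fall passed the test of at least a 1.5-fold change. PDGFB, a ligand of the PDGF receptors, had 9.67 and 10.2 CPM at 72 h, against 0.209 and 0.416 CPM at 24 h (31.9-fold higher, adjusted p = 1.25e-09). Its receptor gene PDGFRB had 30.3 and 28.4 CPM at 72 h and 4.60 and 2.49 CPM at 24 h, 8.07-fold higher. AXL, a receptor linked to drug tolerance in melanoma, had 16.2 and 11.4 CPM at 72 h and 5.09 and 3.41 CPM at 24 h, a log2 fold change of 1.67 ± 0.20. KIT, the receptor of melanocyte precursors, fell 2.36-fold and TYRO3, a receptor related to AXL, fell 1.45-fold. The TGF-beta list gave 11 rises and 4 falls among 24 genes, with a median of 0.36, of which 8 and 2 passed the test of at least a 1.5-fold change. The receptor gene TGFBR2 was 1.83-fold higher, whereas ID3, a target of BMP signalling, had 2.90 and 3.22 CPM at 72 h against 9.69 and 9.06 CPM at 24 h, 3.05-fold lower. SMAD6, an inhibitor of the BMP branch, fell 2.65-fold.

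**Figure D3:**
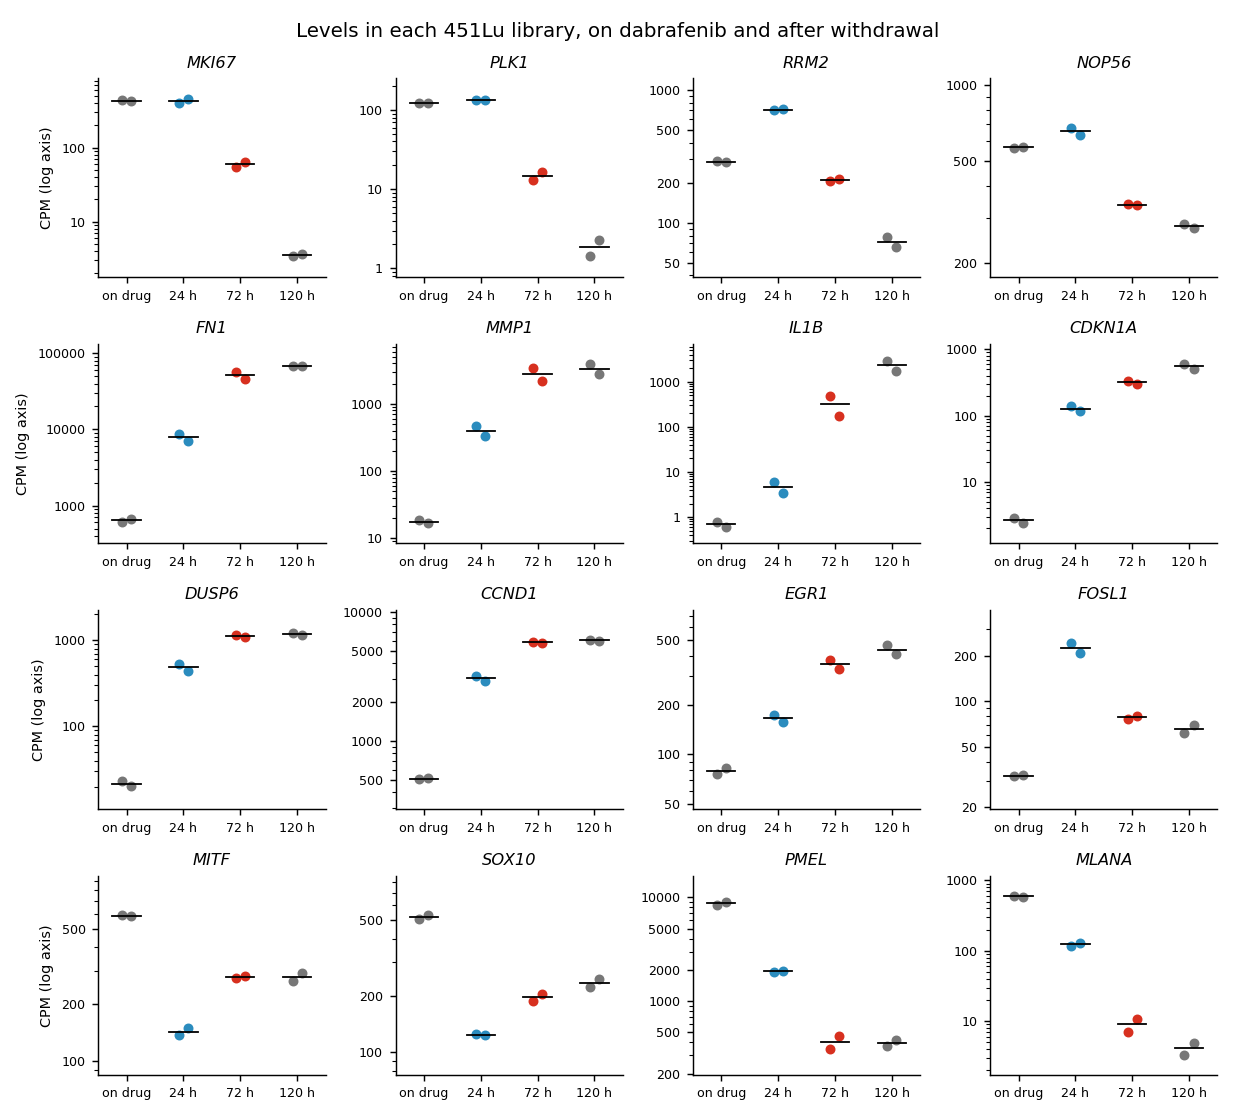
CPM (log axes, a scale for each panel) of 16 genes in every 451Lu library, on dabrafenib and 24, 72 and 120 h after withdrawal. Points are the 2 libraries of a group, bars their mean; 72 h is red, 24 h blue and the other groups grey. The groups at 72 h and 24 h do not overlap in any of the 16 panels, and FOSL1, RRM2, NOP56 and PLK1 have their highest mean at 24 h.

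Of the 28 lists, cytokines and NF-kB targets had the highest median. Of 25 tested genes 22 rose and 2 fell, with a median log2 fold change of 2.15, and 16 rises passed the test of at least a 1.5-fold change. The list has 30 genes, and a low gene can pass the filter on low counts through its high group alone. With a minimum count of 50 there were 19 rises. IL1B (ENSG00000125538, chromosome 2, 112829751 to 112836903), which encodes the inflammatory cytokine interleukin 1 beta, had 475 and 174 CPM at 72 h, against 6.07 and 3.41 CPM at 24 h. Both libraries at 72 h lay far above those at 24 h but differed from each other, so the 66.8-fold rise became 35.9-fold without replicate 1 at 72 h. LIF, a cytokine of the interleukin 6 family, had 3130 and 2270 CPM at 72 h and 671 and 438 CPM at 24 h, 4.87-fold higher. IL11, of the same family, rose 6.22-fold to 87.8 and 89.2 CPM at 72 h, against 15.7 and 12.5 CPM at 24 h. CCL2, a chemokine that attracts monocytes, had 44.0 and 27.4 CPM at 72 h and 1.46 and 1.16 CPM at 24 h, 26.6-fold higher with adjusted p = 1.29e-08. CCL3L3 rose 26.4-fold, and 49.0-fold without replicate 1 at 24 h, and shares reads with near-identical copies of CCL3. The 2 genes that fell were NFKB1, a subunit of NF-kB (1.25-fold lower), and SOD2, a mitochondrial enzyme against superoxide (1.28-fold). NFKB1 did not pass without replicate 2 at 72 h. Cytokine genes were higher in replicate 1 than in replicate 2 at 72 h, by a median of 0.29 on the log2 scale, and at 24 h by 0.19.
Markers of blood cells, which make many of these cytokines, summed to 1.18 and 1.33 CPM at 72 h and 1.19 and 0.249 CPM at 24 h, and the pan-leukocyte gene PTPRC had 0 counts in all 4 libraries.

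Interferon-stimulated genes moved in both directions. Of 27 tested 11 rose and 6 fell (25.9% and 25.5% of all genes), with a median of 0.25. Of these, 5 and 3 passed the test of at least a 1.5-fold change. IFIT1, an antiviral RNA-binding protein, had 14.2 and 16.7 CPM at 72 h and 44.8 and 47.8 CPM at 24 h, 2.99-fold lower, and IFIT3 fell 1.97-fold. OASL, another antiviral protein, had 48.5 and 44.2 CPM at 72 h and 27.0 and 24.8 CPM at 24 h, 1.78-fold higher. GBP2, an interferon-induced GTPase, rose 8.58-fold, and 14.7-fold without replicate 1 at 24 h. Genes of MHC class I presentation gave 11 rises and 2 falls among 17 tested, with a median of 0.39, of which 2 rises and no falls passed the test of at least a 1.5-fold change. NLRC5, the transcriptional activator of MHC class I genes, had 6.23 and 6.45 CPM at 72 h and 1.19 and 0.665 CPM at 24 h, 6.65-fold higher, and ERAP1, a peptidase that trims peptides for presentation, rose 1.59-fold. The peptide transporter genes TAP1 and TAP2 were the 2 that fell, 1.47-fold and 1.68-fold.

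Melanocyte genes moved in both directions: the regulators MITF and SOX10 rose, and the pigment cell genes MLANA and PMEL fell. TYR, the enzyme that starts melanin synthesis, had 24.6 and 41.3 CPM at 72 h and 21.1 and 28.3 CPM at 24 h, which overlap, and did not pass. MITF (ENSG00000187098, chromosome 3, 69739435 to 69968337), the transcription factor that directs melanocyte fate, had 274 and 281 CPM at 72 h, against 137 and 150 CPM at 24 h. The log2 fold change was 0.95 ± 0.06, with edgeR adjusted p = 4.62e-09. SOX10, a neural crest factor upstream of MITF, had 188 and 203 CPM at 72 h and 125 and 123 CPM at 24 h, 1.58-fold higher. MLANA (ENSG00000120215, chromosome 9, 5890802 to 5910606), a melanosome protein and a target of MITF, had 7.09 and 10.9 CPM at 72 h, against 118 and 128 CPM at 24 h. Its log2 fold change was -3.76 ± 0.12, 13.5-fold lower, the deepest fall of the comparison under the naming rule. PMEL, which forms the fibrils of the melanosome, had 344 and 456 CPM at 72 h and 1910 and 1960 CPM at 24 h, 4.82-fold lower. So MITF and SOX10 stood higher at 72 h while MLANA and PMEL stood lower, each with no overlap between groups. Of 27 genes of the list 10 fell, 5 rose and 12 did not pass, with a median of -0.12. Of all genes 25.5% fell and 25.9% rose. Besides MITF and SOX10 the rises were BCL2A1, ERBB3 and RAB27A, named after their values were seen, and there were 3 rises without replicate 1 at 24 h or replicate 2 at 72 h. In the test of at least a 1.5-fold change 1 rise and 8 falls passed.

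**Figure D4:**
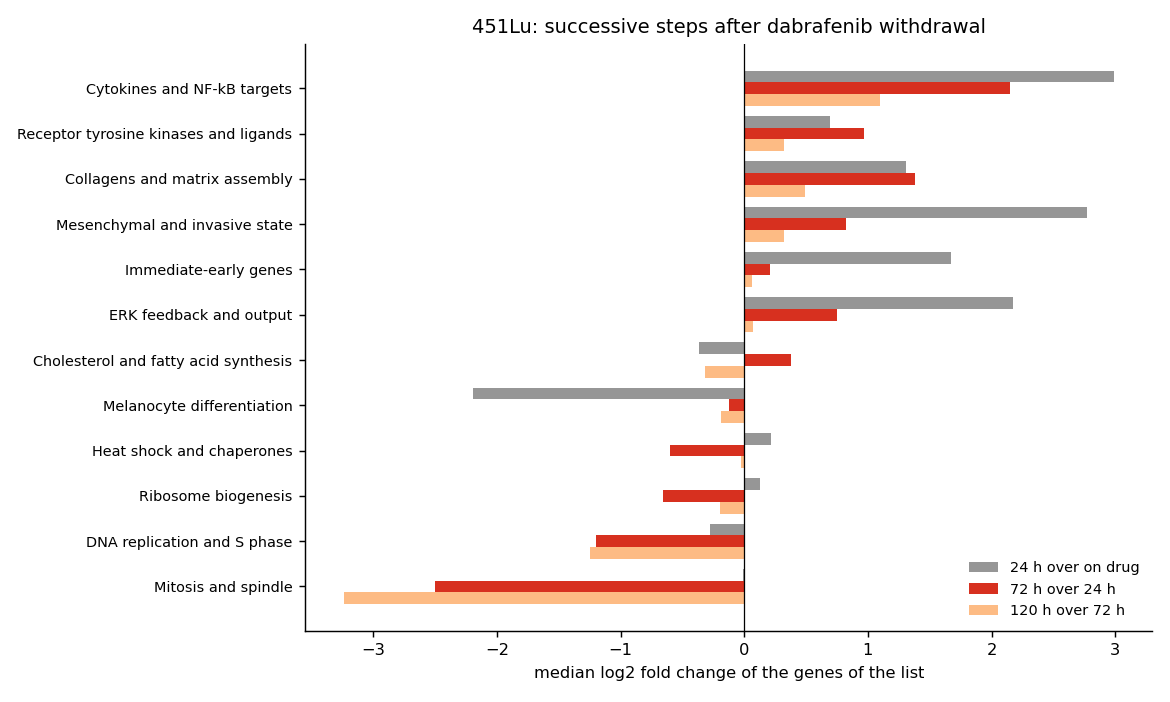
Median log2 fold change of the genes of 12 lists in 3 successive steps of the 451Lu time course: 24 h over on drug (grey), 72 h over 24 h (red) and 120 h over 72 h (orange). Neighbouring steps share the libraries of the time between them. The mitosis median is -0.01 in the first step and -2.50 in the second, and the cholesterol median is above 0 in the second step alone.

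Mitotic genes fell at 72 h and again at 120 h, while in the first day they moved both ways. Neighbouring steps of the time course share libraries, so their values are given side by side. Among the 38 mitotic genes 11 rose and 8 fell at 24 h against on drug (29.2% and 24.9% of all genes), with a median log2 fold change of -0.01, and all 38 fell again at 120 h against 72 h, with a median of -3.24. Of the 40 DNA replication genes 6 rose and 22 fell at 24 h against on drug, with a median of -0.28, and 37 fell at 120 h against 72 h, with a median of -1.25. MKI67 averaged 431 CPM on drug, 424 CPM at 24 h, 59.4 CPM at 72 h and 3.51 CPM at 120 h. The ERK output genes gave 20 rises and 3 falls in the first step with a median of 2.17, and 9 rises and 5 falls in the last (16.6% and 16.1% of all genes) with a median of 0.07. For cytokines the medians of the 3 steps were 2.99, 2.15 and 1.10. FOSL1 averaged 32.4 CPM on drug, 226 CPM at 24 h, 78.4 CPM at 72 h and 65.6 CPM at 120 h. MITF averaged 587 CPM on drug, 143 CPM at 24 h, 278 CPM at 72 h and 279 CPM at 120 h, so its level at 72 h lay between those at 24 h and on drug. MLANA fell in every step, with means of 591, 123, 9.00 and 4.10 CPM over the same order of times.

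Genes of sterol synthesis rose in the step to 72 h. Of 32 tested genes of cholesterol and fatty acid synthesis 19 rose and 1 fell, with a median of 0.38, and 10 rises passed the test of at least a 1.5-fold change. In the step before it 3 rose and 21 fell (median -0.37), and in the step after it none rose and 20 fell (median -0.32). STARD4, a sterol carrier, had 86.2 and 86.2 CPM at 72 h and 19.0 and 22.3 CPM at 24 h, 4.19-fold higher with adjusted p = 1.49e-11. SQLE, squalene epoxidase, had 279 and 284 CPM at 72 h and 110 and 116 CPM at 24 h, 2.50-fold higher. ABCA1, which exports cholesterol, was the 1 that fell (1.54-fold lower).

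Stress and nutrient genes showed no common direction. In the integrated and ER stress list 13 of 26 rose and 8 fell (25.9% and 25.5% of all genes), with a median of 0.15. Of these, 4 rises and 1 fall passed the test of at least a 1.5-fold change. ASNS, asparagine synthetase, was 2.17-fold higher, with 122 and 112 CPM at 72 h and 54.2 and 53.5 CPM at 24 h. SLC7A11, the cystine importer, had 82.0 and 86.6 CPM at 72 h against 325 and 321 CPM at 24 h, 3.83-fold lower, and its partner SLC3A2 fell 1.60-fold. In the glycolysis and hypoxia list 14 of 30 rose and 6 fell (25.9% and 25.5% of all genes), with a median of 0.13. Of these, 5 rises and no falls passed the test of at least a 1.5-fold change. VEGFA, an angiogenic growth factor, had 1140 CPM in both libraries at 72 h and 499 and 457 CPM at 24 h, 2.39-fold higher. The glucose transporter gene SLC2A1 rose 1.71-fold, and the glycolytic genes PGAM1 and ENO1 fell 1.27-fold and 1.21-fold. The list had 10 rises without replicate 1 at 72 h or replicate 2 at 24 h.

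Beyond the lists, the genes with the largest changes included several secreted or neuronal ones. TFPI2, a secreted protease inhibitor, had 269 and 122 CPM at 72 h and 6.90 and 5.24 CPM at 24 h, 31.7-fold higher, and 19.8-fold without replicate 1 at 72 h. UNC13A, a factor of vesicle release at synapses, had 84.0 and 62.8 CPM at 72 h and 2.02 and 1.41 CPM at 24 h, 41.8-fold higher with adjusted p = 2.75e-12. PTGS1, the prostaglandin synthase COX-1, rose 21.2-fold, to 34.5 and 33.6 CPM at 72 h against 1.39 and 1.83 CPM at 24 h. ADAMTS4, a protease that cleaves the matrix proteoglycan aggrecan, rose 27.4-fold, and 69.8-fold or 18.1-fold without replicate 1 or 2 at 24 h. Among the falls, the zinc finger gene ZNF850 was 9.15-fold lower. The antisense gene ENSG00000225106 was 11.5-fold lower and RP11-317M11.1, annotated as sense intronic, 11.1-fold lower. Their log2 fold changes of -3.53 and -3.48 became -4.19 without replicate 1 and -4.48 without replicate 2 at 72 h, and without the strand setting their reads cannot be told apart from those of overlapping genes.
By the size of the change in CPM, MT-CO1, a subunit of cytochrome c oxidase encoded in mitochondria, was among the 5 largest rises, with 12200 and 12100 CPM at 72 h against 8950 and 9000 CPM at 24 h. YWHAZ, an adaptor of the 14-3-3 family, and TUBB, a beta tubulin, were among the 5 largest falls, 1.77-fold and 1.55-fold lower.

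The step was also set against the one most like it in A375, 48 h against 24 h, which shares no library with it. Cell line, drug and length of the step all differ between the 2 and cannot be told apart. In a joint fit of all 16 libraries 5941 of 15481 genes changed differently in the 2 lines (38.4%; edgeR test of the interaction), 3170 with a more positive change in 451Lu (20.5%) and 2771 with a more negative one (17.9%). Genes called in both lines in opposite directions made up 6.91% and those called in the same direction 6.81%. All 38 mitotic genes changed differently, each more negative in 451Lu. In A375 22 of them rose and none fell (10.5% and 12.3% of all genes), with a median of 0.24. MKI67 differed by -2.93 ± 0.09 on the log2 scale, with adjusted p = 2.41e-18. Of the 40 DNA replication genes 39 differed, and all 39 were more negative in 451Lu. For the 24 ERK output genes 20 were more positive in 451Lu and 1 more negative, and in A375 8 rose and 4 fell with a median of 0.05. MITF differed by 2.39 ± 0.10 (adjusted p = 3.09e-16), with a log2 fold change of -1.41 in A375. MMP1 rose in both lines, with log2 fold changes of 2.84 in 451Lu and 2.98 in A375 in the joint fit.

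**Figure D5:**
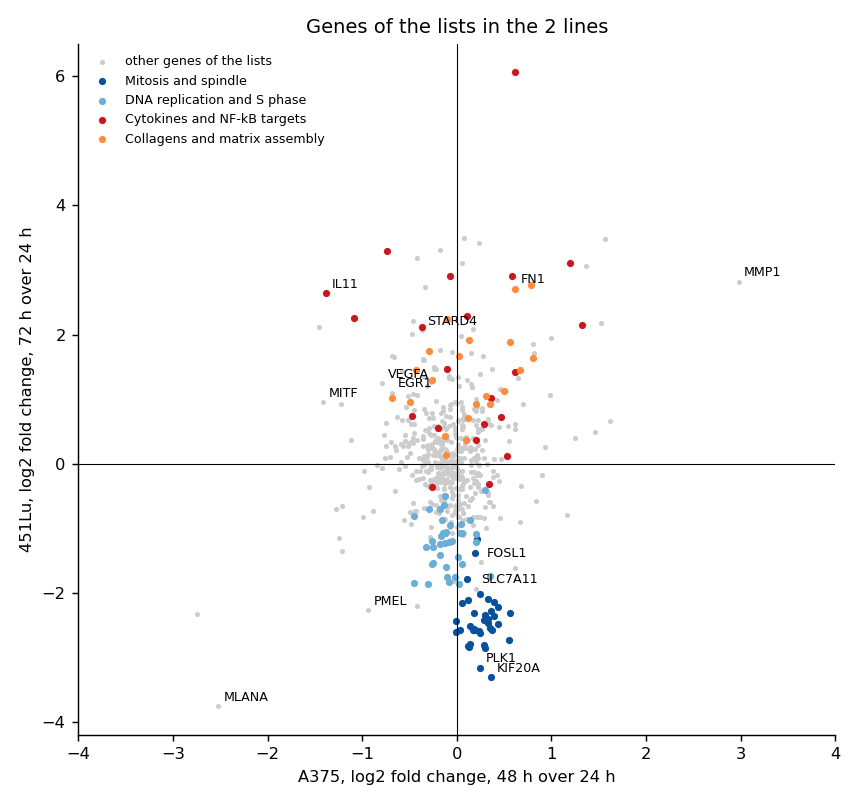
Log2 fold change at 72 h over 24 h in 451Lu (vertical) against that at 48 h over 24 h in A375 (horizontal) for 607 genes of the lists that reached 1 CPM at either time in each line. The mitosis, DNA replication, cytokine and matrix lists are coloured as in the plot of all genes and 13 genes are labelled. Mitotic genes lie far below 0 in 451Lu and at or slightly above 0 in A375.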

How the data were processed

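The deposited table holds raw read counts for 30813 Ensembl genes, 1 column for each of 16 libraries of total RNA extracted with Trizol, per the labels. Per the submitters' processing notes, the authors used TopHat2 2.1.0, Bowtie 1.0.0 and the build GRCh38. For the counter, the annotation release and the strand setting the sources used here give nothing, so overlapping genes and near-identical copies may share reads. Library totals ran from 9714190 to 16691725 counts.

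The 8 451Lu libraries were fitted with edgeR 4.0.16 (limma 3.58.1, R 4.3.3) as 4 groups with TMM scaling, filterByExpr (minimum count 10, minimum total 15) and the quasi-likelihood F test, with 4 residual degrees of freedom. P-values were adjusted by Benjamini-Hochberg over 13851 genes, with a threshold of 0.05. For the contrast between the lines, all 16 libraries were fitted together (15481 genes, 8 residual degrees of freedom). Each SE was taken as the size of the log2 fold change over the square root of F. CPM use TMM-scaled library sizes. A counting interval is an exact 95% Clopper-Pearson interval for counting error alone. The biological coefficient of variation was 4.98% in common. On simulated counts with 200 changed genes, the 72 h against 24 h test (13751 genes) recovered 69% of 1.5-fold, 84% of 2-fold and 98% of 4-fold changes. False calls numbered 5, 15 and 6 in the same order. The simulation gave every gene the same spread and changed far fewer genes than the 51.4% called in the data. Its rates therefore may not carry over to these data.

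Named genes were the 12 largest and 12 deepest fold changes with a mean of at least 5 CPM in the higher group and no overlap, the 5 largest changes in CPM each way, a set of chosen genes, 16 of them reported, and up to 2 called genes per list and direction with the smallest p. A few genes under this rule are not reported here. The groups, lists and rule were chosen with earlier results of these data known, so no list is tested. Some genes stand in several lists. In any list a low gene can pass the filter on low counts through its high group alone. Alternatives were DESeq2 1.42.0, RLE scaling, other count minimums, a test against a 1.5-fold change, a replicate block, other sets of libraries and leaving out each library. Promoters came from the RefSeq table, matched by symbol or, for the motif shares, also by synonym. Motif shares are reported for the mitosis list (32 of 38 genes matched) and the DNA replication list (35 of 40). For the CCAAT box alone they are also given for the cholesterol list (25 of 32) and the nuclear-encoded respiratory chain (27 of 34). Python 3.11.15, pandas 2.3.3 and scipy 1.17.1 made the summaries.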

Additional observations from a re-analysis of the deposited data

Results flagged for a closer look

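Of the named genes, 23 changed in opposite directions in the 2 lines, each past the test within its line and past the edgeR test of the difference between them. Most named genes were picked for their change in 451Lu, so passing there was largely fixed in advance and the 23 give no rate. Of all 15481 genes in the joint fit, 6.91% were called in both lines in opposite directions. The value given is that difference, the log2 fold change at 72 h over 24 h in 451Lu minus that at 48 h over 24 h in A375. The steps differ in length, and line, drug and length of step cannot be told apart.

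The genes that rose in 451Lu and fell in A375 were led by PTGS1, whose difference was 4.75 (4.44 in 451Lu and -0.32 in A375), and IL11, with 4.04 (2.66 and -1.38). NR4A2 differed by 2.51, STARD4 by 2.46, MITF by 2.39, AXL by 2.37 and VEGFA by 2.07. HSPB8 differed by 2.01, EGR1 by 1.8, CTSB, a lysosomal protease, by 1.56, and MT-CO1 by 1.24. ERAP1 and WWTR1, the gene of the transcriptional activator TAZ, each differed by 1.22. TRIB3, a stress-induced pseudokinase, differed by 1.15 and the mitochondrial MT-CO2 by 0.95.

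The genes that fell in 451Lu and rose in A375 were led by 3 mitotic genes, KIF20A (-3.64), NEK2 (-3.42) and PLK1 (-3.39). ID3 differed by -2.21, FOSL1 by -1.76 (-1.5 in 451Lu and 0.26 in A375) and NOP56 by -1.1. KRT18, an epithelial keratin, differed by -0.91 and NFKB1 by -0.64.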

How the results depend on the processing

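The test against a 1.5-fold change called 1768 genes in 451Lu, 1069 higher and 699 lower, and 1619 differences between the lines. Other settings called 5541 (DESeq2) to 7494 genes (all 16 libraries), and leaving out 1 library gave 5837 to 6200 genes, 2886 to 3036 higher and 2936 to 3164 lower. For differences between the lines, leaving out 1 library gave 5166 to 5470 and DESeq2 gave 4918. With RLE scaling the calls split into 3710 higher and 3375 lower, with a median log2 fold change of 0.015 over all genes. Of 130 named genes, 93 kept their direction and call in every alternative run (13, or 12 for AQP1, FN1 and KDR), and 29 lost the call in the 1.5-fold test alone. The 8 that lost it elsewhere were HIST1H2AC, HIST2H2BE, KRT8, MAFK, MAPK9, MYC, NDUFA1 and NFKB1. The MMP1 difference between the lines, which did not pass, ran from -0.5 to 0.15 when 1 library was left out: 0.15 without replicate 2 at 72 h, 0.11 without replicate 1 at 24 h and 0.01 without replicate 2 of A375 at 24 h. The cause was not tested. The difference between replicates 1 and 2 of a group was correlated over genes with that of each other group. The correlation was 0.133 between 24 h and 72 h, 0.137 between 24 h and 120 h and 0.136 between 72 h and 120 h. With the on-drug pair it was -0.019 to 0.01, so the replicate numbers were not taken to pair the libraries. With a replicate block 7453 genes were called, 7116 of them shared with the fit without it, and 5959 differed between the lines. Leaving FN1 out of the library sizes, chosen after seeing the data, gave 7127. Counts limit genes near 1 CPM, where 1 library moved folds most.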

Other observations

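Lysosomal genes divided at 72 h against 24 h. Of 35 genes of lysosome and V-ATPase 14 rose and 14 fell (25.9% and 25.5% of all genes), with a median log2 fold change of -0.02, and 9 fell without replicate 1 at 24 h. In all, 3 rises and 5 falls passed the test of at least a 1.5-fold change. CTSB, the protease cathepsin B, had 1480 and 1330 CPM at 72 h and 615 and 552 CPM at 24 h, 2.40-fold higher. ATP6V0D2, a subunit of the proton pump, had 145 and 137 CPM at 72 h and 303 and 316 CPM at 24 h, 2.2-fold lower. CTSK, a protease that cleaves collagen, fell 1.97-fold. Among 34 nuclear-encoded genes of the respiratory chain 14 fell and 3 rose (25.5% and 25.9% of all genes), with a median of -0.16. In DESeq2 1 rose and in a fit of all 16 libraries 5 rose, and none passed the test of at least a 1.5-fold change. In the 13 genes encoded in mitochondria 4 rose and 2 fell (25.9% and 25.5% of all genes), with a median of 0.12. That median ran from 0.04 to 0.21 over the alternative fits. MT-CO1 and MT-CO2 rose and MT-ND1 and MT-ND6 fell, with log2 fold changes of 0.44, 0.47, -0.57 and -0.75.

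The list of YAP and TEAD targets, which respond to cell shape and density, also holds the regulators WWTR1 and TEAD4. Its 18 genes gave 7 rises and 5 falls (25.9% and 25.5% of all genes), with a median of 0.27. Of these, 4 and 1 passed the test of at least a 1.5-fold change. CTGF, a matricellular protein, had 72.7 and 82.7 CPM at 72 h and 124 and 111 CPM at 24 h, a log2 fold change of -0.60 ± 0.09, while WWTR1 rose 1.79-fold. Of 10 replication-type histone genes 5 fell and 1 rose, with a median of -0.34, and 2 fell without replicate 2 at 72 h. HIST1H2BJ had 2.58 and 2.46 CPM at 72 h and 12 and 11.3 CPM at 24 h, 4.62-fold lower. The neural crest list gave 7 rises and 1 fall among 12 tested genes, with a median of 0.40. The list has 19 genes, and a low gene can pass the filter on low counts through its high group alone. With a minimum count of 50 there were 4 rises, and 3 rises and 1 fall passed the test of at least a 1.5-fold change. L1CAM, a neural adhesion molecule, had 919 and 987 CPM at 72 h and 692 and 668 CPM at 24 h. AQP1, a water channel, had 41 counts at 72 h and 0 at 24 h, at least 18.2-fold higher against a floor of 3 counts over the group. AQP1 is counted among the rises of the neural crest list.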
